A study of Homo sapiens with 6 samples.

Results

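The genes described here encode 6 proteins that associate with the spliceosome at different stages, namely MFAP1, WBP4, CDC40, WTAP, XAB2 and PRPF40B. They were chosen because some of them lay among the strongest falls and others among the strongest rises after UV light in these same arrays. Their UV log2 ratios are therefore given as a description. Where a call of their UV log2 ratio is mentioned, nothing is read from it. All array features annotated to these genes by symbol or RefSeq accession were taken, 46 of 40146 features named for a gene, in 6 of 843 genes. CDC40 was represented by 41 features and each of the other 5 genes by 1.

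RNA came from Hep3B, an established human hepatoma line known to lack p53, and was hybridized to a custom two-colour array that is sensitive to splicing. The comparison set cells that had received 10 J/m2 of UV light (UVC) 6 hours before collection against untreated cells, in 3 biological replicates, and the labels and the methods name different RNA and labelling kits. Each replicate was hybridized on a direct array, with the irradiated sample in Cy5, and on a dye-swap array, with the irradiated sample in Cy3, and the direction, UV over untreated, was taken from the dyes that the labels give for the direct arrays. The dye-swap columns were read as running the same way because every correlation between orientations was above 0, and the sources used here do not state their direction. Both kinds of cells came from the same line, at this dose and time alone, and no hepatocyte or hepatoma marker out of a list of 9 was on the array, so the labelled cell type could not be checked here. Of short lists of blood, fibroblast and endothelial markers, only CD14 was on it.

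The spliceosome assembles stepwise on each intron. The U1 particle first binds the start of the intron, the tri-snRNP then joins to form the precatalytic B complex, the PRP19 complex enters during activation, and a last set of factors acts in exon ligation and release. PRPF40B belongs to the first of these stages, MFAP1 and WBP4 to the B complex, XAB2 to the activated spliceosome and CDC40 to the second catalytic step. WTAP is best known as a regulatory subunit of the nuclear complex that writes N6-methyladenosine (m6A) into mRNA.

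The promoters of 4 of the genes are shown because they span the pattern, with the largest fall (MFAP1), the gene with many features (CDC40) and both rises (XAB2 and PRPF40B). They are RefSeq sequences of GRCh38.p14, from 250 bases before to 50 bases after the annotated start, with matches to a motif or to its reverse complement in capitals. The motifs searched on both strands were the GC box (GGGCGG), the CCAAT box (letters as in its name), the ETS core (CCGGAA) and the TATA box (TATAAA). No matches overlapped.
MFAP1 promoter, chr15:43824641-43824940, minus strand: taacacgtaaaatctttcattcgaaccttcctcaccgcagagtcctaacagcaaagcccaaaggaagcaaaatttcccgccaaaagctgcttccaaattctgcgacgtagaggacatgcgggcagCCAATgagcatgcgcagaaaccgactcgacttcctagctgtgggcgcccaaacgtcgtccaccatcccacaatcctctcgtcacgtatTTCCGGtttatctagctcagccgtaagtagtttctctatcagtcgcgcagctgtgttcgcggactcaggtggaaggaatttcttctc
CDC40 promoter, chr6:110180177-110180476, plus strand: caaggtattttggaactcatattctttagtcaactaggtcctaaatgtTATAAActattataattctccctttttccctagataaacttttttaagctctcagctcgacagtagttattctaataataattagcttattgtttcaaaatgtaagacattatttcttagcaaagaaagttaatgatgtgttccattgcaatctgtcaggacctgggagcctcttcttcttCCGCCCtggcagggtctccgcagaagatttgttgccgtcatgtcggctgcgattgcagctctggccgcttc
XAB2 promoter, chr19:7629496-7629795, minus strand: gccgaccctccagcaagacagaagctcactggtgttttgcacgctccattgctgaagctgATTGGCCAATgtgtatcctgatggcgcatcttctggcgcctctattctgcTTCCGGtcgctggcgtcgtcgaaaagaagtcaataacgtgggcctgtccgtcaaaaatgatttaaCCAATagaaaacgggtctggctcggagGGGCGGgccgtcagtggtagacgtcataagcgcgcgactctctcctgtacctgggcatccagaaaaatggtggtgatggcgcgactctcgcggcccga
PRPF40B promoter, chr12:49623311-49623610, plus strand: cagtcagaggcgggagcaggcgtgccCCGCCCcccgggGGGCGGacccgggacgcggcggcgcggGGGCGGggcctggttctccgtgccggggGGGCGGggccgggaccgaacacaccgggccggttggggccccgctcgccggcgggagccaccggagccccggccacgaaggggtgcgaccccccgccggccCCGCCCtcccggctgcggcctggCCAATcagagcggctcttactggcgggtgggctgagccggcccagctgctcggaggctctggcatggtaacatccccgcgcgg

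The GC content of the falls and that of the rises overlapped in these few genes, and a difference was not tested. The GC content was 51.0% for MFAP1, 39.3% for CDC40 and 62.7% for WBP4 among the falls, and 56.0% for XAB2 and 80.3% for PRPF40B among the rises, against a median of 58.7% over 35116 promoters. WTAP had 2 annotated starts, with 70.3% and 73.3%. A GC box was found in every one of these genes but MFAP1 (45.0% of all promoters hold it), with 5 matches in PRPF40B and 1 each in CDC40, XAB2 and WBP4. The CCAAT box was found in all but CDC40 (34.6% of all promoters), 3 times in XAB2, and for WTAP at 1 of its 2 starts. The ETS core was found in MFAP1 and XAB2 (17.2%), a fall and a rise, and the TATA box in CDC40 and WBP4 (11.5%). A match is a run of letters and was not tested as a site.

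Across the 6 arrays MFAP1, WBP4 and WTAP were strongly lower after UV, and XAB2 and PRPF40B were higher. CDC40 was 1.21-fold lower by the mean of its features, of which 24 were called lower and 8 higher. A log2 ratio is the log2 of the normalized level in irradiated over that in untreated cells. A value of 0 thus means a change like that of the middle of the array, and not necessarily an unchanged amount. All 6 genes kept the same sign on every array. They all passed an adjusted p of 0.05 by limma, as did 71.7% of the 775 genes tested, and nothing is read from this count since the genes were chosen from this contrast. Past 1.3-fold as well, 3 of them were lower (18.8% of all genes tested) and 2 higher (2.06%). All of these have 1 feature, and of tested genes with 1 feature 33.7% were lower and 4.53% higher past 1.3-fold. Since the genes were chosen as falls and rises, nothing is read from this count either. In RNA from whole cultures, a change in some of the cells and a smaller change in all of them cannot be told apart.

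The files gave 36532 to 38392 values per array, with array medians from -0.010 to 0.010, so a rise or fall is set against the middle of all features on that array. Columns correlated at 0.836 to 0.943 across features within a dye orientation and at 0.538 to 0.663 between orientations. The spread of log2 ratios was smallest on the arrays of replicate 2 (SD 0.316 direct and 0.322 dye-swap). On the other 4 arrays the SD was 0.352 to 0.375. Called genes numbered 556, against 637 without replicate 2 and 587 with quantile normalization, which gives the arrays the same spread. Beyond such runs, the part of this spread in the results below was not tested.

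**Figure D1:**
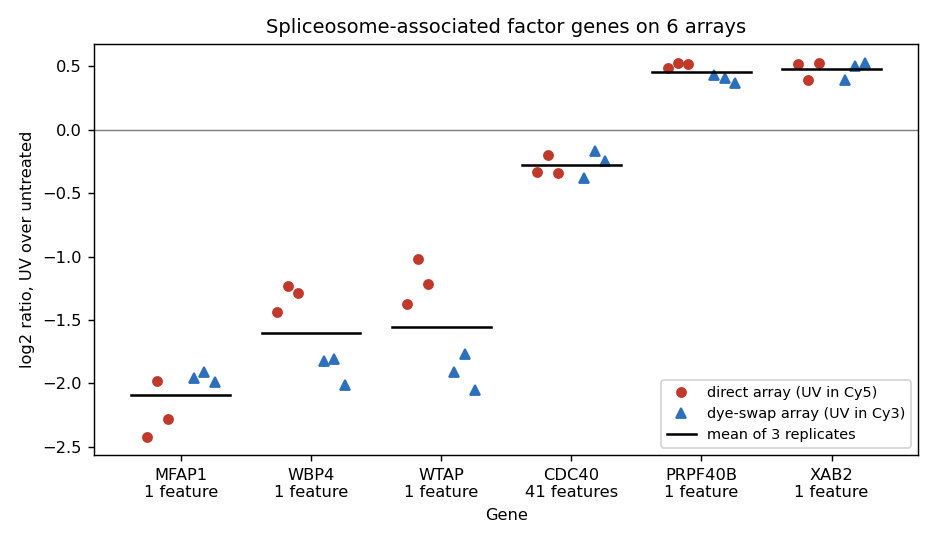
Log2 ratio of UV over untreated (vertical axis) for each of the 6 genes on the 3 direct arrays (circles) and the 3 dye-swap arrays (triangles), with the mean of 3 replicates as a line. MFAP1 lies between -2.42 and -1.91, and for WBP4 and WTAP the dye-swap arrays all lie below the direct arrays.

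MFAP1 had the largest fall of the 6. It was named after microfibrils, but its protein is a component of the spliceosomal B complex. Its log2 ratio was -2.42, -1.98 and -2.28 on direct arrays 1, 2 and 3, and -1.96, -1.91 and -1.99 on the dye-swap arrays. The dye-swap arrays lay close together, while the direct arrays were wider apart. The replicate means of -2.19, -1.95 and -2.14 averaged to -2.09 (SE 0.055 from limma, n = 3), a 4.26-fold lower level, at rank 3 from the lowest of 775 genes.

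WBP4 encodes a WW domain protein that binds proline-rich splicing factors and is found in the same complex as MFAP1. It read -1.44, -1.23 and -1.29 on the direct arrays and -1.82, -1.81 and -2.01 on the dye-swap arrays. The orientations did not overlap, and the dye-swap arrays gave the larger falls. The mean log2 ratio was -1.60 (SE 0.033, n = 3), 3.03-fold lower and 12th from the lowest of all genes tested.

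WTAP followed the same order. Its log2 ratio was -1.37, -1.02 and -1.22 on the direct arrays and -1.91, -1.77 and -2.05 on the dye-swap arrays, again without overlap. Its mean of -1.56 (SE 0.059, n = 3) was 2.94-fold lower and 14th from the lowest. In MFAP1, WBP4 and WTAP alike, replicate 2 gave the smallest fall in both orientations, although for WBP4 dye-swap arrays 1 and 2 were nearly equal.

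Among the rises, XAB2 encodes a protein of the activated spliceosome that was found through its binding to the repair protein XPA and takes part in transcription-coupled repair. Its log2 ratio was 0.52, 0.39 and 0.53 on the direct arrays and 0.39, 0.50 and 0.53 on the dye-swap arrays, so the orientations overlapped fully. The mean was 0.48 (SE 0.025, n = 3), 1.39-fold higher and the 8th highest of 775 genes.

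PRPF40B, the relative of the yeast U1 protein Prp40 with WW and FF domains, gave 0.49, 0.53 and 0.52 on the direct arrays and 0.43, 0.41 and 0.37 on the dye-swap arrays. Every direct array was above every dye-swap array. The replicate means of 0.46, 0.47 and 0.45, each over both orientations, were the tightest of the 6 genes (SD 0.013). This SD leaves out the gap between orientations. The mean of 0.46 (SE 0.017, n = 3) was a 1.37-fold higher level, the 9th highest. The rises of XAB2 and PRPF40B lay within each other's spread over arrays, from 0.39 to 0.53 and from 0.37 to 0.53. The falls of WBP4 and WTAP likewise overlapped, from -2.01 to -1.23 and from -2.05 to -1.02. MFAP1 overlapped with both at its upper end, its highest array being at -1.91.

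**Figure D2:**
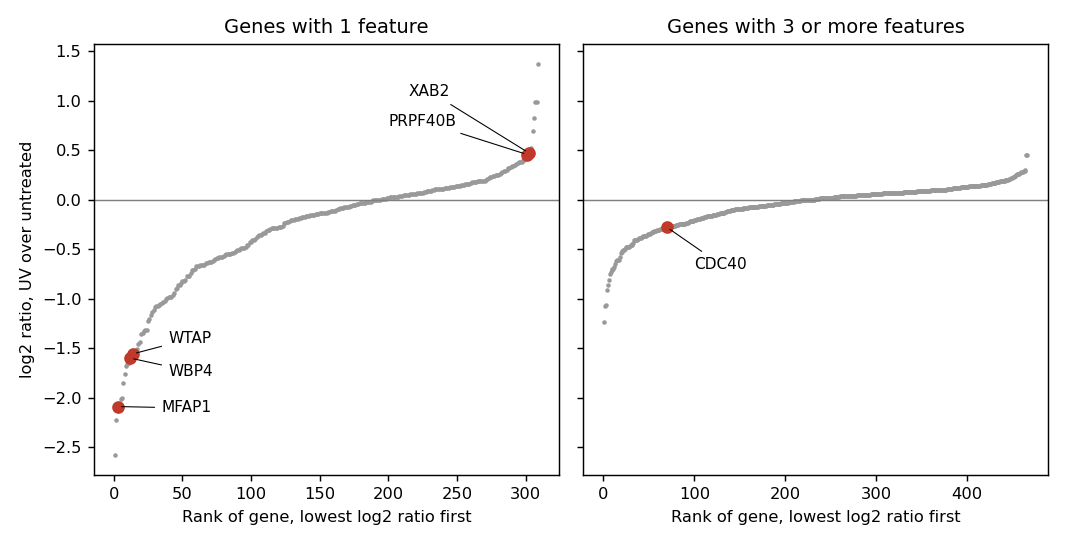
Log2 ratio of UV over untreated (vertical axis) of 309 tested genes with 1 feature (left) and 466 with 3 or more (right), in order of rank (horizontal axis), with the 6 genes as red points. MFAP1, WBP4 and WTAP stand at ranks 3, 12 and 14 from the lowest on the left, and CDC40 at rank 70 on the right.

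The 5 genes with 1 feature belong to a group whose share of genes lower past 1.3-fold was above the 18.8% of all genes, a difference not tested. Of 309 tested genes with 1 feature, 33.7% were called lower past 1.3-fold and 4.53% higher. A gene with 1 feature has no second feature on the array to set its value against, and its value cannot be told apart from the behaviour of that feature. CDC40 is the only one of the 6 genes for which this could be examined.

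The difference between the dye orientations was tested, since it is a quantity separate from the mean that the choice of genes rested on. By limma over all genes, 402 of 775 genes (51.9%) differed between orientations, but 124 did without replicate 2 and 125 without replicate 3. Of the 6 genes, WTAP had the largest difference, with a direct mean of -1.20 and a dye-swap mean of -1.91 (difference 0.71, adjusted p = 0.00317, direct above dye-swap in 3 of 3 replicates). WBP4 had means of -1.32 and -1.88 (difference 0.56, adjusted p = 0.00641, 3 of 3 replicates). PRPF40B differed by 0.11 (0.51 against 0.40, adjusted p = 0.0375, 3 of 3 replicates), which did not pass when each array was centred on its median (adjusted p = 0.0608). For WBP4 the adjusted p was 0.0543 without replicate 2 and 0.0523 without replicate 3, and for PRPF40B 0.201 and 0.192.

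The other 3 genes did not pass this test. MFAP1 had means of -2.23 and -1.95 (difference -0.27, adjusted p = 0.0510), which passed without replicate 2 (adjusted p = 0.0462). CDC40 had means of -0.29 and -0.26 (adjusted p = 0.565) and XAB2 of 0.48 and 0.47 (adjusted p = 0.925). In each of the 6 genes the difference was smaller than the UV log2 ratio itself.

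CDC40, the human counterpart of yeast Prp17, encodes a WD repeat protein of the second catalytic step. Averaged over its features, it read -0.33, -0.20 and -0.34 on the direct arrays and -0.38, -0.16 and -0.25 on the dye-swap arrays. Replicate 2 gave the smallest fall in both orientations. The mean of -0.28 (SE 0.040, n = 3) was 1.21-fold lower (its call was lost without replicate 3), 189th from the lowest of 775 genes and 70th of the 466 genes with 3 or more features. This mean hid a wide spread between the features, from a log2 ratio of -1.92 to 0.35.

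Of the 41 features of CDC40, 37 had a value on all 6 arrays and were tested, 3 had values on some arrays and 1 had none. Among the 37, 24 were below 0 on all 6 arrays, 6 were above 0 on all 6 and 7 did not keep 1 sign. By limma 24 features were called lower (28.2% of all 34301 features tested) and 8 higher (26.3%), and 5 were not called. These calls come from the contrast by which the gene was chosen and serve as a description.

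Ordered by their means, the features fell into 4 bands separated by the 3 widest gaps, a division made after the values were seen. The lowest band was a single feature, number 23508 on the array. It read -2.22, -1.87 and -2.08 on the direct arrays and -1.77, -1.69 and -1.89 on the dye-swap arrays, with a mean of -1.92 (SE 0.050). No other feature of CDC40 was lower than -0.79 on any array. The next lowest, feature 21268, had a mean of -0.58, a gap of 1.34 on the log2 scale.

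The second band held 23 features, with means from -0.58 to -0.35 and a median of -0.45. These made up most of the gene and moved closely together. Their average was -0.54, -0.30 and -0.54 on the direct arrays and -0.59, -0.35 and -0.50 on the dye-swap arrays, so that here too replicate 2 had the smallest fall. A further band of 5 features lay from -0.077 to 0.015 and none of its features was called.

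The highest band held 8 features, with means from 0.18 to 0.35 and all called higher. Feature 28739, with a mean of 0.35, read 0.28, 0.26 and 0.25 on the direct arrays and 0.21, 0.58 and 0.50 on the dye-swap arrays. Feature 21097 reached the same mean of 0.35 from 0.61, 0.25 and 0.35 on the direct and -0.01, 0.39 and 0.49 on the dye-swap arrays, and feature 14403 followed with 0.34. These 2 features fell below 0 on dye-swap array 1, and the other 6 of the band were above 0 on every array. The gene value of -0.28 lay in the gap between the band of 23 and the band of 5 features, where no tested feature had its mean. Which exon or junction each feature covers was not analysed here, and features of a gene may overlap in sequence.

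**Figure D3:**
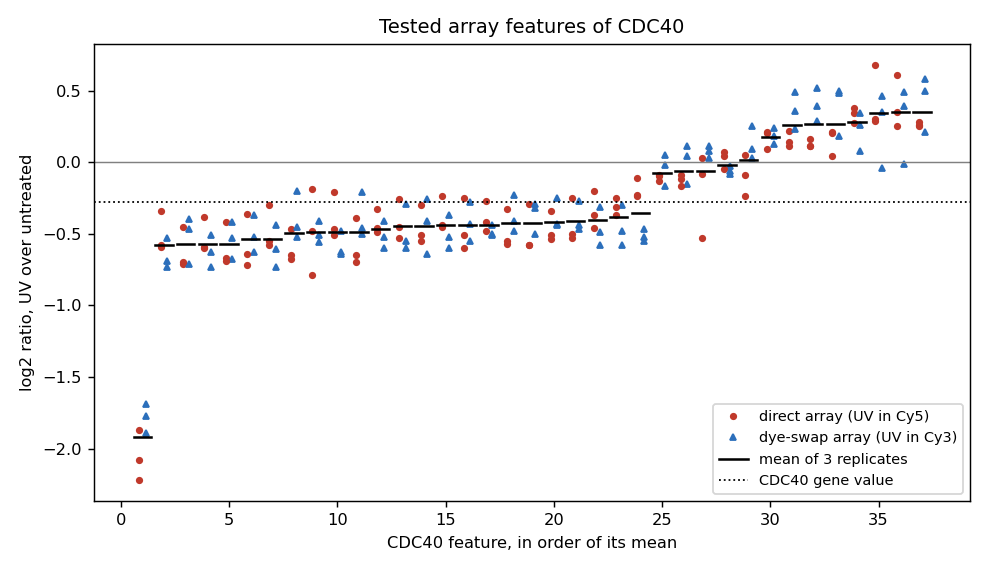
Log2 ratio of UV over untreated (vertical axis) of the 37 tested CDC40 features in order of their mean (horizontal axis), with direct arrays as circles, dye-swap arrays as triangles, replicate means as lines and the gene value of -0.28 dotted. A single feature at -1.92 stands below 23 features between -0.58 and -0.35, and 8 features lie between 0.18 and 0.35.

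The splicing index is the log2 ratio of a feature minus that of the rest of its gene, averaged. Feature 23508 had the lowest index of CDC40, at -1.69 (SE 0.030, n = 3), past the 1.4-fold limit. It was the only CDC40 feature called lower by this index (2.16% of 33992 features were called lower), and 7 features of the highest band were called higher (1.76%). Features 21268 (-0.31), 13491 (-0.30) and 6676 (-0.30) came next at the lower end and did not reach 1.4-fold. At the upper end stood features 28739 (0.64, SE 0.029), 21097 (0.64, SE 0.045) and 14403 (0.63, SE 0.042). The index shows unequal change within the gene and does not tell which features moved. Its calls for CDC40 also come from the contrast by which the gene was chosen and serve as a description.

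With 8 of 37 features called by the index (21.6%), CDC40 ranked 27th of 466 genes by this share, which is likewise a description. The called features numbered 5 on direct arrays alone and 1 with a 2-fold limit. The gap of 1.34 between the lowest feature and the next was at rank 4 among genes with at least 3 tested features, after ATG5 (1.55), PPM1D (1.48) and MAP3K5 (1.47). In absolute terms feature 23508 was nearer to MFAP1, with a root mean square difference of 0.176 over the 6 arrays, than to the CDC40 mean (1.65).

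Genes with the nearest array values were sought by the root mean square difference over the 6 arrays among 761 genes with a value on each. WBP4 and WTAP were each other's nearest gene (0.104), followed for both by the helicase gene DDX20 (0.160 and 0.203). The third nearest was NEDD9 for WBP4 (0.165) and BCL10 for WTAP (0.256). MFAP1 was nearest to TANK (0.133), then to RHOH (0.276) and SMAD7 (0.418). PRPF40B was second nearest to XAB2 (0.0965) after TNF (0.0491), followed by CKB (0.115), whereas PRPF40B itself had GADD45A (0.0743), TNF (0.0797) and CKB (0.0856) nearest. CDC40 had CHUK (0.0635), SRPK2 (0.0654) and FXR1 (0.0677). These are descriptions of 1 contrast, in which genes with like ratios lie near each other whatever their role.

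The partners of these genes were then described through lists of splicing complexes and of the m6A writer. Leaving out the 6 genes, 45 listed genes were tested, of which 24 were called lower (41.4% of all genes tested) and 8 higher (30.3%), while 13 were not called. Together 32 of the 45 were called, close to the 71.7% of all genes. Past 1.3-fold, 16 were lower (18.8% of all genes and 33.7% of those with 1 feature) and 0 higher (2.06% and 4.53%). Their median log2 ratio was -0.17, against -0.027 over all genes tested and -0.13 over those with 1 feature, to which 24 of the 45 belonged. Of the 309 tested genes with 1 feature, 154 were called lower and 73 higher. Without replicate 3, 20 of the 45 were called in place of 32.

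MFAP1 and WBP4 belong to the B complex and WW domain list. Of its 7 other genes 2 were called lower (41.4% of all genes tested), 0 higher (30.3%) and 5 were not called, with a median log2 ratio of -0.070. PRP4K (PRPF4B), the kinase that phosphorylates tri-snRNP proteins in this complex, fell by 1.07 (SE 0.043, 57 features, adjusted p = 0.00023). The MFAP1 and WBP4 values lay below those of all other genes of this list, each of which had 1 feature except PRP4K. Both were chosen as strong falls, so this order is a description. The number called lower was 4 without replicate 2 or on direct arrays alone, and on dye-swap arrays alone 3 were called lower and 1 higher. SMU1 (direct mean -0.29, dye-swap mean 0.15), CD2BP2 (-0.22 and 0.11), IK (-0.13 and 0.05) and ZMAT2 (0.24 and -0.21), none of them called, changed sign between orientations.

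Of 9 other U1 and early complex genes beside PRPF40B, 3 were called lower (41.4% of all genes tested), 2 higher (30.3%) and 4 not called (median -0.048). The splicing regulator RBM25 fell by 0.89 (SE 0.065, 1 feature, adjusted p = 0.000849) and the branch point binding protein gene SF1 rose by 0.19 (SE 0.020, 117 features, adjusted p = 0.00238). No other gene of the list reached the 0.46 of PRPF40B. PRPF40B has 1 feature and was chosen as a rise, while the other tested genes except RBM25 had 25 to 117 features. Called rises numbered 4 with a replicate block, with no replicate block over the 6 arrays, with a fixed dye term, with arrays centred on their medians, under quantile normalization and without replicate 2, and 1 without replicate 3.

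XAB2 lay above all other tested genes in its list of the PRP19 complex and other proteins of the activated spliceosome. It was chosen as a strong rise in this contrast, so this place is a description. Of the 16 other genes tested 9 were called lower (41.4% of all genes tested), 4 higher (30.3%) and 3 not called, with a median of -0.15. Of these 16 genes, 10 had 1 feature. Among those called lower, SYF2 had a direct mean of -0.80 and a dye-swap mean of 0.23, so that its direction turned between orientations, and CWC27 had means of -0.58 and -0.10. CWC22, which also recruits an exon junction complex helicase to the spliceosome, fell by 1.44 (SE 0.096, 1 feature, adjusted p = 0.000648), and the largest called rise among them was that of PRPF19, the ubiquitin ligase of the complex, by 0.12 (SE 0.016, 107 features, adjusted p = 0.00455). Without replicate 3 the list had 4 called lower and 0 higher, and without replicate 1 it had 7 and 1.

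The list of second-step and release factors had the lowest median of the lists of splicing complexes, at -0.64. Of 9 genes beside CDC40, 7 were called lower (41.4% of all genes tested), 1 higher (30.3%) and 1 not called. Among these 9, 6 had 1 feature. Of all 309 such genes tested, 154 were called lower and 73 higher, with a median of -0.13. TFIP11, a G-patch protein of spliceosome disassembly, fell by 0.997 (SE 0.028, 1 feature, adjusted p = 0.000109). The helicase gene DHX38 rose by 0.13 (SE 0.034, 1 feature, adjusted p = 0.0305), a call lost without replicate 1, without replicate 3, on dye-swap arrays alone and without a replicate block. Some falls of this list differed in size between orientations, as for the helicase genes DHX15 (direct mean -0.45, dye-swap mean -1.28) and DHX16 (-0.04 and -0.94), a difference whose part in the counts was not tested. CDC40 at -0.28 was close to PRPF18, another second-step factor, at -0.27 (SE 0.038, 89 features, adjusted p = 0.00508), and the difference between them was not tested.

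Of 9 listed genes of the m6A writer and its readers, 4 including WTAP were on the array, and METTL3 and METTL14 were not. Around WTAP, 3 other genes were tested and 3 were called lower (41.4% of all genes tested), with a median of -0.59. RBM15, which recruits the writer to RNA, fell by 0.62 (SE 0.021, 41 features, adjusted p = 0.00015). The writer subunit gene VIRMA was at -0.59 (SE 0.031, 1 feature, adjusted p = 0.000375) and the reader gene YTHDC1 at -0.31 (SE 0.025, 32 features, adjusted p = 0.00108). The fall of WTAP, which was chosen as a strong fall, was larger than that of each of them. These counts were the same under every alternative run. Of the transcription-coupled repair list, XAB2 was the only gene tested, and of the constitutively expressed genes ACTB was the only gene on the array, where it rose by 0.28 (SE 0.025, 7 features, adjusted p = 0.00142).

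**Figure D4:**
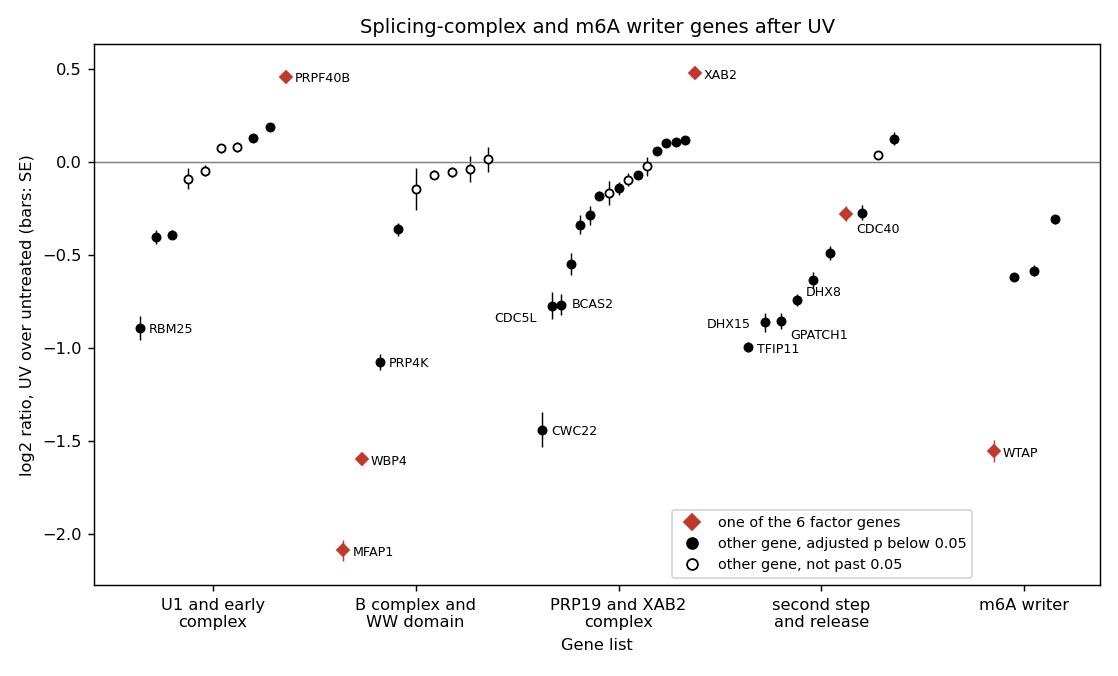
Log2 ratio of UV over untreated (vertical axis, bars SE from limma, n = 3 replicates or fewer where values were missing) for the genes of 5 lists (horizontal axis), with the 6 genes as red diamonds, other genes past an adjusted p of 0.05 as filled circles and the rest as open circles. MFAP1 and WBP4 lie below, and PRPF40B and XAB2 above, all other genes of their lists, and they were chosen as strong falls and rises.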

How the data were processed

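RNA of irradiated and untreated Hep3B cells was compared on 6 two-colour arrays. Per the methods, the authors applied normexp background correction and LOWESS normalization in limma. The deposited values were log2 ratios, 1 column per array, with 15.1% to 19.2% of cells empty. The reason for empty cells, the array build and scanner settings are not given in the sources used here, and the number of arrays limits the precision. Since every pair of columns correlated above 0, the columns of swapped arrays were read as turned before deposit, and UV over untreated was taken from the dyes that the labels give for the direct arrays.

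Features were named from the platform annotation through RefSeq symbols (GRCh38.p14), 38971 by accession, 978 by symbol and 197 by synonym. Features of a gene were averaged on each array, and a replicate was the average of its direct and its dye-swap array, both being required. The titles give the pairing, on which the replicate means and their SDs and SEs rest. For replicates 1, 2 and 3, the paired arrays deviated from their orientation's mean with a correlation over genes of 0.053, 0.606 and 0.181, while direct array 1 went with dye-swap array 3 at 0.546. Genes, features and the splicing index (genes with 3 or more features, fold over 1.4) with at least 2 replicates were fitted by limma 3.58.1 (R 4.3.3, statmod 1.5.0) with an intercept, two-sided, with Benjamini-Hochberg adjustment at 0.05. Orientations were compared by the same fit on paired differences. SEs are moderated by limma.

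The 6 genes and the lists were chosen with earlier results of these data known. Named genes were the 6, the called gene with the largest fall and rise in each list, the 3 nearest genes of each of the 6, the 3 CDC40 features lowest and highest by index, and PRP4K; others (VIRMA, YTHDC1, PRPF18, DHX15, DHX16, SYF2, CWC27, SMU1, CD2BP2, IK, ZMAT2 and the genes of the widest feature gaps) were named after their values were seen. The fits were tested on simulated data with changes of 1.1-fold, 1.3-fold and 2-fold. They recovered 70.1%, 98.5% and 100% of these for genes, and 0%, 34.3% and 95.5% for single features. A smaller share of features was changed there than was called in the data. A feature that was not called may still have changed by a small amount. Alternatives covered dye orientation, blocks, left-out replicates, scaling, the prior, missing values, thresholds and the summary of features.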

Additional observations from a re-analysis of the deposited data

Results flagged for a closer look

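The log2 ratio differed between the direct and dye-swap arrays, by limma's test of that difference, for 3 of the 6 genes, with a direct minus dye-swap difference of 0.71 for WTAP, 0.56 for WBP4 and 0.11 for PRPF40B. Of all genes tested 402 (51.9%) also differed, a share near that of 3 in 6, so the count says nothing particular about these genes. Without replicate 2 the number was 124 and without replicate 3 it was 125, and the cause was not tested. The calls of WBP4 and PRPF40B were lost without replicate 2 and without replicate 3, and that of PRPF40B also with centred arrays. Both orientations kept the sign of each of these genes.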

How the results depend on the processing

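The 6 genes kept the sign of their log2 ratio under all alternatives run. On direct arrays alone the log2 ratio was -2.23 for MFAP1, -1.32 for WBP4, -1.20 for WTAP and 0.51 for PRPF40B, and on dye-swap arrays alone -1.95, -1.88, -1.91 and 0.40. CDC40 was at -0.40 by the median of its features and at -0.36 when features with an index call were left out, and its call was lost without replicate 3. With 1 replicate left out, the ranges were -2.16 to -2.04 for MFAP1, -1.64 to -1.58 for WBP4, -1.64 to -1.52 for WTAP, -0.33 to -0.24 for CDC40, 0.45 to 0.49 for XAB2 and 0.45 to 0.47 for PRPF40B. The called CDC40 features by index numbered 5 on direct arrays alone, 1 past 2-fold and 8 to 9 with 1 replicate left out.

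Called genes numbered 556, or 162 with a fold over 1.3 as well, and 311 to 637 with 1 replicate left out. Called features numbered 18693, or 9839 to 18062 with 1 replicate left out, and 1331 features were called by the index, 2014 on dye-swap arrays alone, 130 past 2-fold and 1185 to 1449 with 1 replicate left out. Genes that differed between orientations numbered 402, and 124 to 435 with 1 replicate left out. Listed genes called numbered 20 to 39 with 1 replicate left out. The difference between orientations was taken as paired differences divided by 2, and on that scale it turned sign for XAB2 without replicate 1 (-0.0275) and with centred arrays (-0.00333), and for CDC40 without replicate 3 (0.00371), values near 0. With 1 replicate left out it ranged from -0.0330 to 0.00371 for CDC40 and from -0.0275 to 0.0325 for XAB2. With the replicate number as a block, 589 genes were called, 35 of them listed, and without it 486. The cause of these shifts was not tested.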
